A study of Mus musculus with 4 samples.

Results

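Of the 3564 TOP2B peaks called with the Novus antibody in mouse thymocytes, 323 (9.06%) were also called with a Santa Cruz antibody and lay inside a protein-coding gene, over 1 kb from the starts of protein-coding transcripts. These common intragenic peaks are described here. They were selected on the peak calls themselves, as Novus peaks that overlapped any Santa Cruz peak by 1 bp or more. The centre had to fall within the span of a protein-coding gene and over 1 kb from every protein-coding transcription start. Starts of other annotated transcripts were not used in this selection, and 17 of the 323 (5.26%) lay within 1 kb of one. Overlap between antibodies held for 994 Novus peaks, or 27.9% of the list, of which the 323 were 32.5% (exact Clopper-Pearson 95% interval 29.6% to 35.5%). The others lay within 1 kb of a start (263 peaks) or between genes (408 peaks). By place, 26.8% of the 1206 Novus peaks inside genes were common (24.3% to 29.4%). The share was 24.9% near starts and 31.4% between genes.

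Binding was mapped by ChIPseq in thymocytes taken fresh from wild-type C57BL/6 mice of 4 to 6 weeks, in formaldehyde-fixed chromatin and with libraries prepared by ChIPmentation, in which a transposase adds the adaptors on the beads. Each TOP2B antibody (Santa Cruz and Novus Biologicals) had 1 library, and the IgG and TOP2A libraries were not analysed here. The lists hold positions and no peak heights, and the depth of each library cannot be read from them, so no value has a replicate error and no test between sets of peaks was made. Intervals cover counting error only and treat peaks as independent.

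TOP2B is a type II topoisomerase, and the main one active in the G1 phase and in cells that do not divide. It relieves the torsion and entanglement of DNA by cutting a duplex, passing another duplex through the gap and resealing it. It is known to occupy active promoters and, with cohesin, sites of the insulator protein CTCF, which halts cohesin in an orientation-dependent manner at the base of chromatin loops. Long genes are often discussed in connection with topoisomerases because transcription of a long template generates torsional stress. The positions of the intragenic peaks were therefore set against gene length, place along the gene, intron number and the sequence at the peak.

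The whole sequences of 3 peaks are printed because the CTCF core, searched as a consensus of 12 letters on both strands, matched there without mismatch and closest to the centre. Capitals mark the core. All sequences are from mm9, plus strand, and all 3 peaks were intronic. The core middle lay 0.5 bp from the centre in *Ssh2* and in *4831426I19Rik*, and 1.5 bp from it in *Uggt2*. In *Ssh2* and *Uggt2* the core read on the minus strand, which is why it appears as its reverse complement.
Ssh2, chr11:77122160-77122354: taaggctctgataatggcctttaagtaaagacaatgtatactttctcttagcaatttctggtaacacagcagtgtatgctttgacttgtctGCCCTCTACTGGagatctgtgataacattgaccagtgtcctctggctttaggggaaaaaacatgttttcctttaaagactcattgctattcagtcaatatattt
4831426I19Rik, chr12:106190733-106190927: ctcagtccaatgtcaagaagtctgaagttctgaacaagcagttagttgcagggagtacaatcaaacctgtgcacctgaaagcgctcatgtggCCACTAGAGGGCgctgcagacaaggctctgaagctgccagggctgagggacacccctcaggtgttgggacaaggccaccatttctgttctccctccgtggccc
Uggt2, chr14:119426454-119426648: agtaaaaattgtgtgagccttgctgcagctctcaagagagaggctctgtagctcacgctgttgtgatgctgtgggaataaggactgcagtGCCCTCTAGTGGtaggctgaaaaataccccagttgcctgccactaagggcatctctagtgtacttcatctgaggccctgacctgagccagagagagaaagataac
The next sequences come from peaks in host genes of the T-cell receptor pathway. *Cd28* encodes a co-stimulatory receptor and *Ptprc* the phosphatase CD45. Neither peak had a match to the CTCF core within 250 bp of its centre, so no letters are in capitals.
Cd28, chr1:60815191-60815385: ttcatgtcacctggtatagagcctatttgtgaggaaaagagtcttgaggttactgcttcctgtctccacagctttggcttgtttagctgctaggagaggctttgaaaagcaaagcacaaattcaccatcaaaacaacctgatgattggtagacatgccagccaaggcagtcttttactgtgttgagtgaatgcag
Ptprc, chr1:140033068-140033262: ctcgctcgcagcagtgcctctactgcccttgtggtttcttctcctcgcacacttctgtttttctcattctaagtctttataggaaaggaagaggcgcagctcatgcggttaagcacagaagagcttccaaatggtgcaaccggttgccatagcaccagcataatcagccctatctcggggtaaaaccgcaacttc
The printed *Ptprc* sequence held 1 match to the RUNX letters TGTGGTTT. The *Cd28* peak had 1 match to the GATA letters AGATAA within 250 bp of its centre, outside the printed bases. How often these letters occur in gene sequence is given below with the other motifs.

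The CTCF core was the sequence feature in which the common intragenic peaks stood furthest from the surrounding gene sequence among the motifs searched. With up to 1 mismatch and within 250 bp of the centre, it was found in 148 of 323 peaks (45.8%, 40.3% to 51.4%). Of the 1884207 windows of the same width that tile the gene territory, 4.51% held it. Gene territory here means every base of protein-coding genes over 1 kb from a protein-coding start (953.7 Mb on chromosomes 1 to 19 and X). Unsequenced bases were left out of the windows but not of the territory. Bases where reads cannot be placed uniquely were not removed from either. Without mismatch, the core was found in 54 peaks (16.7%, 12.8% to 21.2%) and in 0.280% of the windows.

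Peaks of a single antibody inside genes held the core less often than the common peaks. The share was 22.7% (883 Novus-only peaks) and 14.7% (7254 Santa Cruz-only peaks), and neither interval overlapped that of the common peaks. Common peaks between genes had a similar share of 48.5% (43.6% to 53.5%), with overlapping intervals, whereas common peaks at promoters had 17.5% (13.1% to 22.6%). No test of these differences was made.

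**Figure D1:**
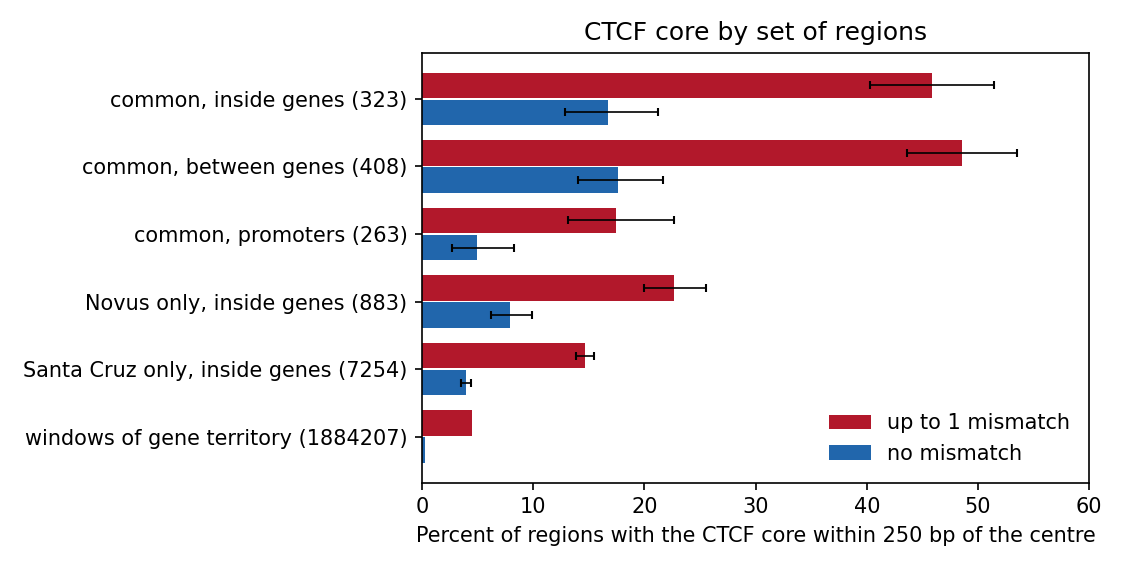
Percent of regions with the CTCF core within 250 bp of the centre (x axis) in 5 sets of TOP2B peaks and in windows of the gene territory, with up to 1 mismatch (red) and without mismatch (blue). Bars are shares and lines exact 95% intervals (none for the windows, which are all counted). The common peaks inside and between genes reach 45.8% and 48.5%, and the windows 4.51%.

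Common intragenic peaks were richer in G and C than gene territory. Their median GC content in the same windows was 48.3% (47.5% to 49.1%), against 42.5% in windows of the territory, 48.1% in intragenic Novus-only peaks and 46.9% in intragenic Santa Cruz-only peaks. In all 5 classes of GC content, the common intragenic peaks held the core more often than Novus-only peaks, Santa Cruz-only peaks and windows. Among sequences of 45 to 50% GC, 41 of 99 common intragenic peaks held the core (41.4%, 31.6% to 51.8%), against 19.7% of Novus-only peaks, 13.2% of Santa Cruz-only peaks and 5.44% of the windows. Below 40% GC the core was found in 19 of 28 common peaks (67.9%, 47.6% to 84.1%), against 36.8% of Novus-only peaks, 12.3% of Santa Cruz-only peaks and 2.79% of windows. In the windows the share rose with GC, and in the common peaks it did not. The split by GC was chosen after the data were seen.

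The core lay close to the peak centre. The median distance of its middle was 58.5 bp (45.5 to 68.5 bp), and in 43.2% of the peaks with a match it was within 50 bp. In 138 peaks all matches were on 1 strand, and the core read in the direction of the host gene's transcription in 60 of them (43.5%, 35.1% to 52.2%), an interval that holds 50%. By position in the gene, the core was found in 38.5% of peaks in intron 1 (27.7% to 50.2%), 48.3% in later introns (41.3% to 55.3%) and 44.8% in exons (26.5% to 64.3%), with overlapping intervals. Peaks in host genes under 100 kb had it in 80 of 160 cases and those in longer genes in 41.7%, again with overlapping intervals.

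More peak centres lay on the 5′ side of the core, which is read here along its own strand, than on its 3′ side. Of 134 common intragenic peaks with a single match, the Novus centre lay 3′ of the core in 53 (39.6%, 31.2% to 48.4%), with a median of 19 bp on the 5′ side (position -19, interval -43.5 to -0.5 bp). The centres of the overlapping Santa Cruz peaks gave 47 of 134 (35.1%, 27.0% to 43.8%) and a median position of -28 bp (-41.5 to -12.5 bp). These centres are not independent of the Novus centres, since each pair shares at least 1 bp, and both fell on the same side in 90 of 134 peaks (67.2%). Common peaks between genes, which are other regions of the same libraries, had 66 of 175 Novus centres on the 3′ side (37.7%, 30.5% to 45.3%). In Santa Cruz-only peaks inside genes the share was 47.0% (43.9% to 50.2%), and in Novus-only peaks 42.7% (35.3% to 50.3%). Both of these intervals hold 50%, and they overlap that of the common intragenic peaks, so that a difference between sets was not shown. The median position was -5.5 bp (-14.5 to 0.5 bp) in Santa Cruz-only peaks and -27.5 bp (-48.5 to 0.5 bp) in Novus-only peaks. The measures of side and position were added after the data were seen.

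**Figure D2:**
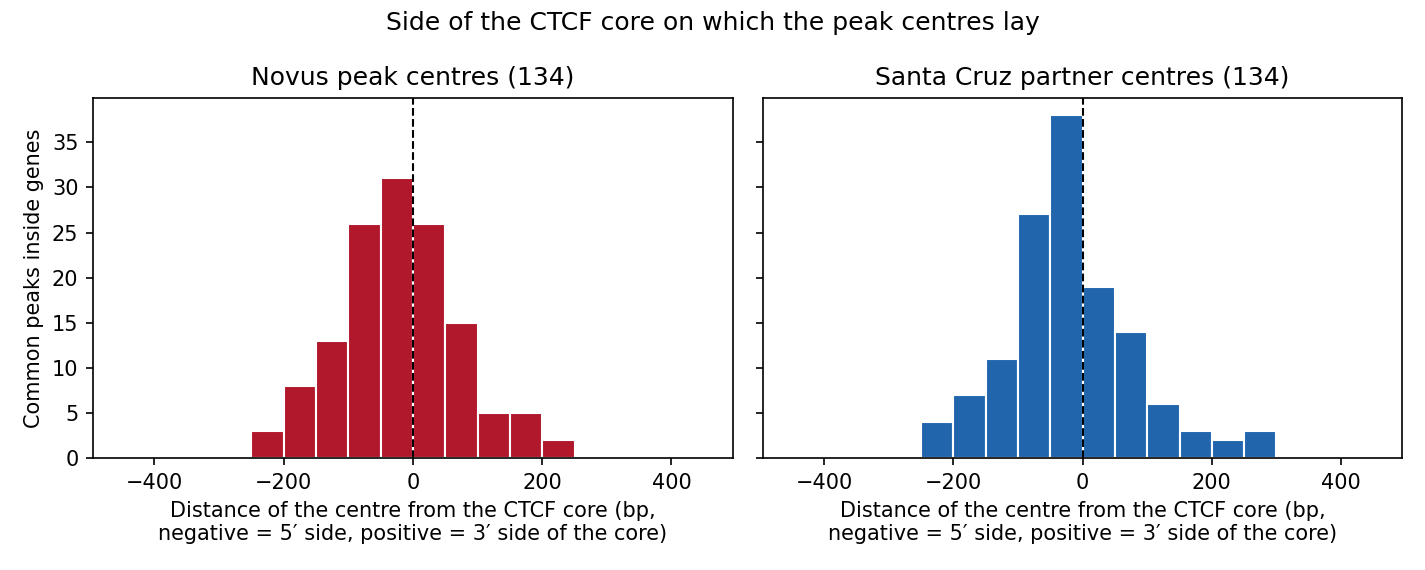
Distance of the peak centre from the middle of the CTCF core in bp (x axis, negative on the 5′ side of the core along its own strand) against the number of common intragenic peaks with 1 match (y axis), for the Novus centre (left) and the Santa Cruz partner's centre (right). Of the 134 peaks, 53 Novus and 47 Santa Cruz centres lie to the right of the dashed line at 0.

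Other motifs were searched by exact letters on both strands within 250 bp, and the letters of none contain those of another. The E protein site CAGCTG was found in 107 of the 323 common intragenic peaks (33.1%, 28.0% to 38.6%) and in 19.1% of windows. The RUNX site TGTGGTTT was found in 25 peaks (7.74%, 5.07% to 11.2%) and in 4.07% of windows. For both factors, which act in T-cell development, Novus-only peaks gave shares within the interval of the common peaks (34.2% and 6.23%). Santa Cruz-only peaks had RUNX letters in 5.31%, also within it, and the E protein site in 27.5% (26.5% to 28.6%), just below the common interval's lower bound but with overlapping intervals. TCF1/LEF1 letters ATCAAAG (9.60% of peaks, 9.25% of windows) and AP-1 letters TGANTCA (14.9% and 14.4%) were as frequent as in the windows. The GATA letters AGATAA were at 24.5% (19.9% to 29.5%) against 28.8%. The GC box GGGGCGGGG was found in 5 peaks (1.55%, 0.50% to 3.6%) and in 0.885% of windows. The ETS site ACCGGAAG was found in 3 peaks (0.929%, 0.192% to 2.69%) and in 0.411% of windows. These intervals hold the shares of the windows. Only the CTCF core was compared within classes of GC content. The NRF1 palindrome was found in 0 common intragenic peaks and in 0.0270% of windows. Of the common intragenic peaks, 4.95% had the CpG content of an island (GC over 50% and observed over expected CpG over 0.6), against 73.4% of the common peaks at promoters.

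The 323 peaks lay in 307 host genes, the host being the longest protein-coding gene around the centre. These are 1.58% of the 19430 genes that have gene territory. Most hosts had 1 peak (292 genes), 14 had 2, and *Med12l*, which encodes a paralogue of a Mediator kinase-module subunit, had 3 over 114.4 kb. The first 2 of these, 54.1% and 36.5% of the way along the gene, lay in the same intron of 134.0 kb, and both held a CTCF core on the coding strand. The third fell in a coding exon, inside the span of the nested gene *P2ry12*, a receptor for ADP, and had no match.

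Among the hosts with 2 peaks, *Pde4d*, a cAMP phosphodiesterase gene of 1504 kb, had them in introns 3 and 7, separated by 335.2 kb. The second held an exact core 4.5 bp from the centre, and the first lay only 1.098 kb from an alternative start. *Wwox*, an oxidoreductase gene at a common fragile site, had both in its last intron of 639.4 kb, 131.3 kb apart. *Ptprk*, a receptor phosphatase, had both in introns 11 and 13, 27.95 kb apart and without a core. *Akap13* and *Erc1*, which encode a signalling scaffold and a scaffold of the active zone, had pairs 152.8 kb and 161.8 kb apart, none with a core. The pair in *a*, the nonagouti coat-colour gene, was 30.84 kb apart, and those in *Ssbp2*, *Ssh2* and *Cubn* 173.7 kb, 138.0 kb and 114.5 kb. In *Ssh2*, a cofilin phosphatase gene, the pair comprised the sequence printed above in intron 1 and a peak in intron 13 without a core. In *Ssbp2* likewise, 1 of the pair held an exact core.

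Peaks of single antibodies were frequent in the same genes. Of the 307 hosts, 190 (61.9%) also held a Santa Cruz-only peak and 66 (21.5%) a Novus-only peak, against 22.1% and 4.03% of all genes with gene territory. Hosts are also longer than other genes, and the part of length in these shares was not tested. A common peak lay within 1 kb of an own start in 6 of 307 hosts (1.95%, 0.720% to 4.21%). The share in all protein-coding genes was 1.27%, within that interval. The 6 genes were *Lrrc28*, *Arhgap31*, *L3mbtl3*, *Inpp5f*, *Ggnbp1* and *Dnajb4*, named after their values were seen. A Santa Cruz peak was at an own start of 77 hosts (25.1%, 20.3% to 30.3%), against 12.1% of all genes. Within genes of 100 to 200 kb these shares were 23.1% and 17.8%, and within genes of 200 to 500 kb 28.1% and 14.3%.

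The median host gene length was 100.7 kb per peak (86.9 to 113.3 kb) and 93.6 kb per gene, against 19.2 kb for all genes with gene territory. A gene with more bases has more places for a peak, so lengths were also set against the bases of gene territory. Peaks in genes of 100 kb or more were 163 of 323 (50.5%, 44.9% to 56.1%), while such genes hold 61.4% of the territory. Novus-only and Santa Cruz-only peaks had 50.5% and 50.8% in such genes and median lengths of 101.2 and 101.6 kb, all within the intervals of the common peaks.

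Density was lowest in the longest genes. It was 0.460 common peaks per Mb in genes under 20 kb, 0.379 at 20 to 50 kb, 0.474 at 50 to 100 kb, 0.429 at 100 to 200 kb, 0.289 at 200 to 500 kb and 0.0988 in genes of 500 kb or more. The last class held 17 peaks (5.26%, 3.10% to 8.29%) and 18.1% of the territory. The percentage of genes that were hosts rose from 0.245% under 20 kb to 7.56% at 200 to 500 kb, and was 6.50% in the longest class. These percentages are of all protein-coding genes, including those without gene territory, which cannot be hosts. Santa Cruz-only peaks also thinned out, from 10.6 per Mb under 20 kb to 3.70 per Mb in the longest class.

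**Figure D3:**
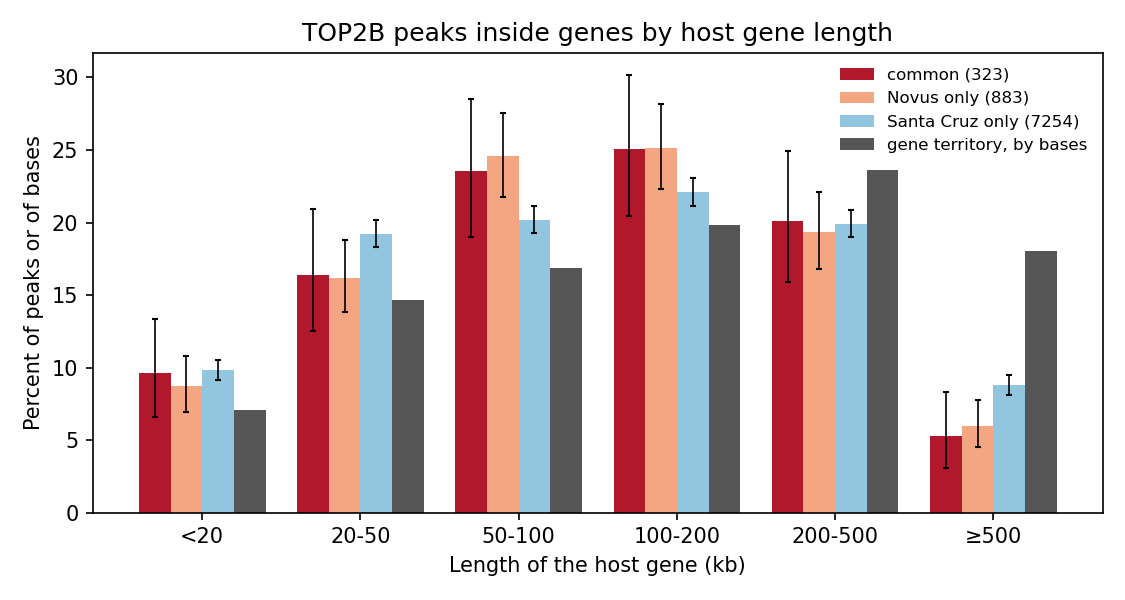
Percent of TOP2B peaks inside genes, or of gene territory, by host gene length in kb (x axis). Red, orange and light blue bars are common, Novus-only and Santa Cruz-only peaks with exact 95% intervals, and grey bars are bases. The common peaks fall to 5.26% in genes of 500 kb or more, which hold 18.1% of the bases.

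The longest hosts need care, because their spans rest on single transcripts. *Gm20388* (4435 kb) has 1 coding transcript, and the peak in it also lay in *Ankrd11*, a chromatin regulator. *Fgfr2*, a fibroblast growth factor receptor gene, spans 3009 kb through 1 of its 20 coding transcripts, of which the next is 103.7 kb. Its 2 peaks lay within *Tacc2* and *Fam53b* as well. The peak of *Arfip1* (1391 kb, next transcript 86.4 kb) also lay in *Tmem154*. In the other long hosts, *Pde4d* and *Fam190a* (1203 kb), no such second gene was annotated. The shortest hosts were *Hes1* (3.41 kb), a transcriptional repressor that responds to Notch, *Tmem121* (3.62 kb), *Marcks* (5.68 kb), a substrate of protein kinase C, *5133401N09Rik* (7.04 kb) and *Prhoxnb* (7.46 kb). In *Hes1* the peak was in a coding exon, 1.832 kb from the start, and in the other 4 it was in intron 1. The *Prhoxnb* peak held an exact CTCF core. With up to 1 mismatch allowed, the peaks of *Tmem121* and *Marcks* also held a core, 3.5 bp and 70.5 bp from the centre.

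Along the gene, the common peaks were spread over the whole body. The median position was 54.3% of the way from the 5′ end (46.8% to 61.6%), with quartiles at 28.0% and 77.8%. The first 10% of the gene held 21 peaks (6.50%, 4.07% to 9.77%) and 8.43% of the territory, which the distance to starts reduces there. Counts in the following steps of 10% were 41, 22, 34, 33, 24, 32, 45, 37 and 34, where the territory gives 10.00 to 10.22% each. Only the steps from 70% to 80%, with 45 peaks (13.9%, 10.4% to 18.2%), and from 20% to 30%, with 22 (6.81%, 4.32% to 10.1%), had intervals that left out the share of the territory, and with 10 intervals such cases are not rare. Novus-only and Santa Cruz-only peaks had medians of 52.7% and 52.0%. The median distance to the nearest coding start was 20.2 kb, and 30.7% of peaks (25.7% to 36.0%) were within 10 kb of a start. Novus-only and Santa Cruz-only peaks had 28.4% and 31.9% there, both within the interval. Within 5 kb of the 3′ end lay 37 peaks (11.5%, 8.20% to 15.4%), an interval that holds the 8.51% of territory. Novus-only and Santa Cruz-only peaks had 11.9% and 11.1% there. Within 1 kb of the 3′ end lay 7 common peaks (2.17%), against 1.85% of territory.

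Exons held 29 of the common intragenic peaks (8.98%, 6.10% to 12.6%) and 5.75% of the territory. The shares of Novus-only (9.29%) and Santa Cruz-only peaks (7.60%) were within the interval. Of the 29, 22 were centred in coding sequence, 6 in a 3′ UTR and 1 in a 5′ UTR. *Itgb7*, *Hes1*, *Tap1* and *Med12l* were among the hosts with a peak in coding sequence, and *Nt5c2*, a nucleotidase gene with 2 peaks, had 1 of them in its 3′ UTR.

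The other 294 peaks lay outside the exons of coding transcripts and are called intronic here. Of these, 285 could be given an intron number on the longest coding transcript of the host around the centre. The remaining 9 lay in no coding transcript of their host. Intron 1 held 78 (27.4%, 22.3% to 32.9%), intron 2 held 46 (16.1%), intron 3 held 33 (11.6%), intron 4 held 11 (3.86%, 1.94% to 6.80%) and introns 5 or later held 117 (41.1%). Intronic bases of the territory were divided in nearly the same way, with 25.7%, 15.7%, 10.8%, 7.38% and 40.5%, and intron 4 was the class in which the interval left out the share of bases. Novus-only and Santa Cruz-only peaks had 26.0% and 29.4% in intron 1, both within the interval. The last intron held 30 of the peaks (10.5%, 7.22% to 14.7%), against 8.79% of intronic bases.

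**Figure D4:**
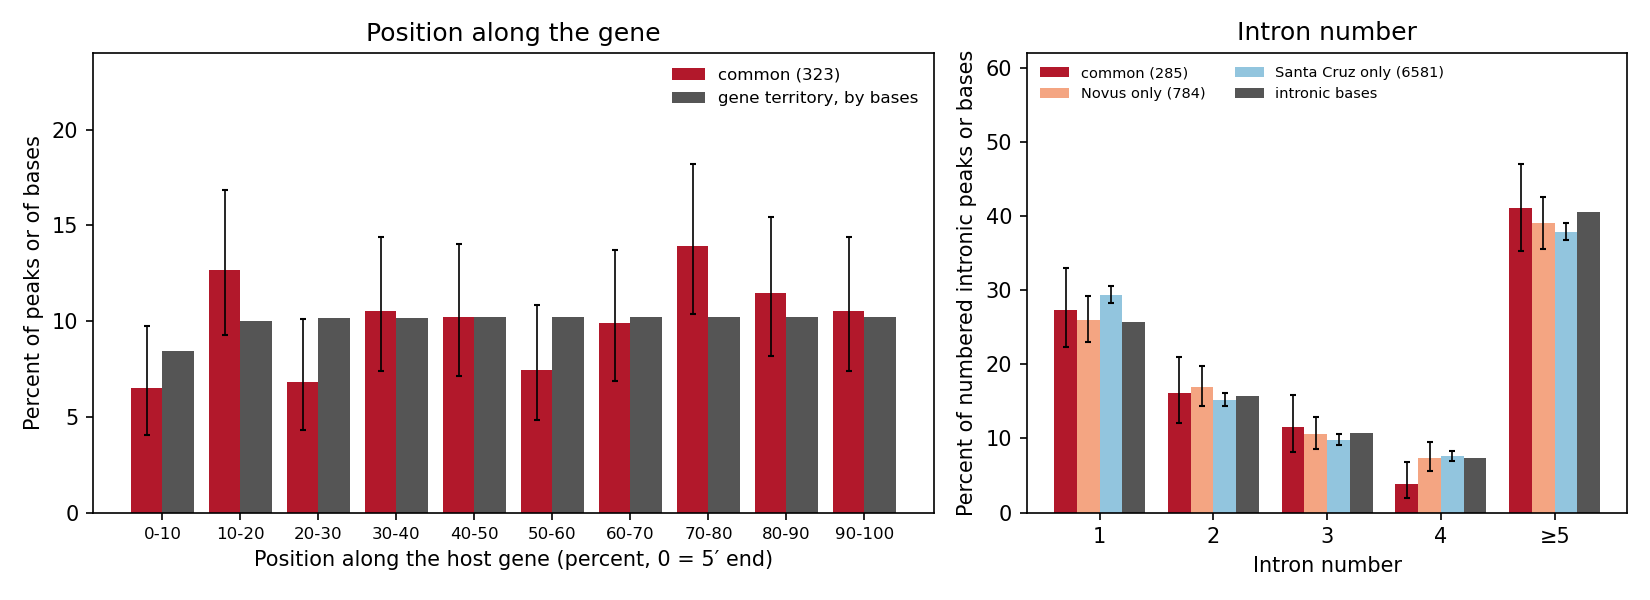
Left, percent of common intragenic peaks (red) and of gene territory (grey) by position along the host gene, in steps of 10% from the 5′ end (x axis). Right, percent of numbered intronic peaks of 3 sets and of intronic bases by intron number (x axis). Lines are exact 95% intervals. Intron 1 holds 27.4% of the common peaks and 25.7% of intronic bases.

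The introns that held the peaks were shorter than those that hold the bases. Their median length was 15.1 kb (11.3 to 20.1 kb), while the median intronic base of the territory lies in an intron of 26.7 kb. The median distance of an intronic peak from the nearest exon was 2.43 kb (2.08 to 2.86 kb), against 4.38 kb for bases of the territory outside exons. Novus-only peaks had medians of 19.8 kb and 3.19 kb (2.75 to 3.89 kb), and Santa Cruz-only peaks 18.4 kb and 2.93 kb (2.76 to 3.09 kb), all between the values of common peaks and territory, with intervals that overlap those of the common peaks. The 3 peaks in the longest introns were 1 in *Gm20388* (4384 kb) and 2 in the same intron of *Fgfr2* (2957 kb).

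Of 8 lists of genes, the 5 of T-cell function and leukaemia held 13 of the host genes. Of all protein-coding genes, 1.37% were hosts, as were 1.09% of those of 20 to 50 kb and 3.08% of those of 50 to 100 kb. Among T-cell receptor signalling genes (median length 46.3 kb), 5 of 48 (10.4%) were hosts. These were *Cd28* (intron 1), *Ptprc* (intron 2), *Rasgrp1*, an activator of Ras (intron 2), *Stim1*, the calcium sensor of the endoplasmic reticulum (intron 6), and *Txk*, a kinase of the Tec family (intron 9). Only the *Txk* peak held a CTCF core, which was exact and 44.5 bp from the centre. The peaks lay 10.93 kb (*Rasgrp1*) to 38.71 kb (*Ptprc*) from the nearest coding start. The list had 1.64 peaks per Mb of territory, where all genes had 0.339.

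Among cytokine receptor and homing genes (median length 28.7 kb), 3 of 35 (8.57%) were hosts, at 2.32 per Mb. They were *Il2ra*, the alpha chain of the interleukin-2 receptor, with a peak in intron 1 and a core with 1 mismatch, *Itgb7*, an integrin beta chain that directs lymphocytes to the gut, and *Jak1*, a kinase bound to cytokine receptors, in intron 11. T-lineage transcription factors (median length 58.8 kb) had 2 hosts of 49 (4.08%), at 0.503 per Mb. *Stat5a*, which acts downstream of such receptors, had its peak in intron 6, and *Tox*, a factor needed for CD4 T cells, in its last intron, 99.2% of the way along the gene and with an exact core. The survival list (median length 21.3 kb) had *Bcl2*, the inhibitor of apoptosis, as 1 host of 25 (4%), at 1.27 per Mb. The *Bcl2* peak was in the only intron of the gene, of 168.9 kb. The leukaemia list (median length 78.4 kb) had 2 hosts of 36 (5.56%), at 0.665 per Mb. They were *Nf1*, an inhibitor of Ras (intron 30), and *Picalm*, a clathrin adaptor gene found in leukaemia fusions (intron 1).

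The list of cohesin, topoisomerase and chromatin regulator genes (median length 75.3 kb) had 2 hosts of 48 annotated genes (4.17%), at 0.483 per Mb. They were the chromatin regulators *Arid1a*, a subunit of SWI/SNF (intron 4), and *Rcor1*, a corepressor (intron 2). Genes of other cell types had 0 hosts of 28 in 1.22 Mb, a territory so small that the density of all genes (0.339 per Mb) also gives less than 1 peak there. Neuronal adhesion and synapse genes, with a median length of 1098 kb, had 0 hosts of 39 annotated genes in 42.9 Mb. Santa Cruz-only peaks there numbered 88 (2.05 per Mb, against 7.61 in all genes). All genes of 500 kb or more had 3.70 Santa Cruz-only and 0.0988 common peaks per Mb. The part of gene length in the low densities of the neuronal list was not tested. Each list rests on 5 peaks or fewer, the lists were chosen with earlier results known, and no test was made of them. Santa Cruz-only peaks were also denser than in all genes in the 7 lists other than the neuronal one, at 9.86 to 23.2 per Mb. The lowest of these, in genes of other cell types (median length 16.8 kb), was below the 10.6 per Mb of all genes under 20 kb.

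**Figure D5:**
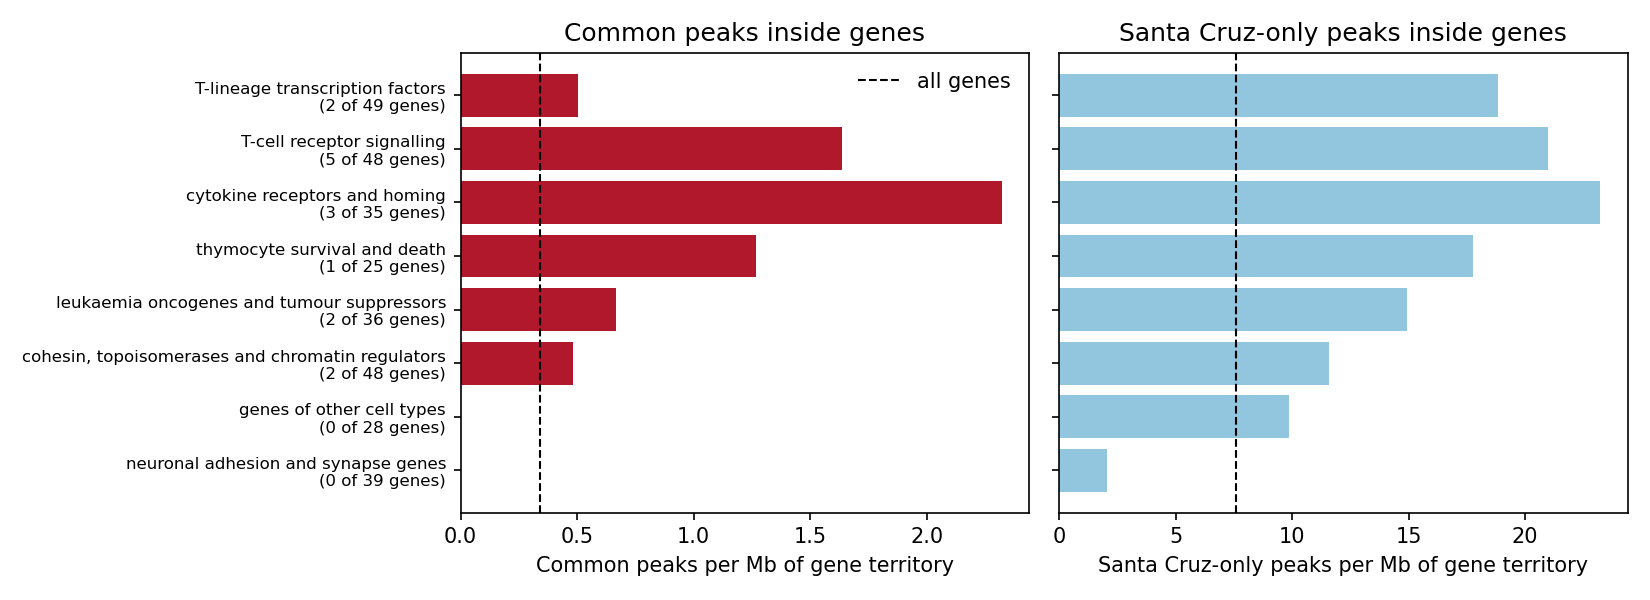
Peaks per Mb of gene territory (x axes) in 8 lists of genes, for common intragenic peaks (left) and Santa Cruz-only peaks (right), with the density in all genes as a dashed line. The numbers beside the names are host genes of annotated genes. The left bars rest on 5 peaks or fewer and are empty for genes of other cell types and neuronal genes.

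Peaks near the limits of the selection are given as a description. *Tgfbr3*, 1003 bp from the nearest coding start, and *Tap1*, at 1016 bp, were just inside the limit of 1 kb, and common peaks in *Baz1a* (982 bp) and *Bend3* (951 bp) were just outside it. The smallest overlaps with a Santa Cruz peak were 3 bp in *Txk* and 4 bp in *Prim2*, and Novus peaks in *Nebl* and *Camta1* touched one without overlap. The median distance between Novus and Santa Cruz centres was 73 bp, with 118 bp shared. By chromosome, density ranged from 0.0461 per Mb on the X, with 2 peaks, to 0.648 on chromosome 19 (17 peaks) and 0.641 on chromosome 11 (34 peaks).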

How the data were processed

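The authors used Bowtie 1.2.0 for alignment to mm9, and HOMER (factor style) for peaks of each library separately, keeping peaks at least 10-fold over IgG. The deposited lists (3564 Novus and 17754 Santa Cruz peaks) give chromosome, start and end, and the deposited score is 0 for every peak. No read depth per peak was used here.

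Peaks were placed by centre on GENCODE M1 (mm9). The host was the longest protein-coding gene holding the centre, and introns were numbered on its longest coding transcript there. Counting genes of any type gave 347 peaks in place of 323. Named genes were all list hosts, up to 12 hosts with several peaks, the 5 longest and 5 shortest hosts, peaks at the limits and the 3 peaks in the longest introns. The peaks and gene lists were chosen with earlier results of these data known. Motifs were searched within 250 bp of centres. The scripts were tested on simulated data. Repeat annotation was not used here. Tools were numba 0.67.0, numpy 2.4.6, pysam 0.24.0, scipy 1.17.1 and matplotlib 3.10.9 under Python 3.11.15, with samtools 1.23.1.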

Additional observations from a re-analysis of the deposited data

How the results depend on the processing

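The 8 main values were recomputed under 46 alternatives, and 39 of them stayed within 1.5 times the count or within the 95% interval of the value. Requiring 50% of each peak to be shared left 213 of the 323 peaks. Counting intron 1 of any coding transcript of the host raised its share to 34.0%. Intronic bases of the territory were not recounted by that looser rule, so this share has no background. The share of peaks with the CTCF core was 16.7% without mismatch and 31.9% within the peak itself, where windows of the gene territory had 0.280% and 1.73%. The median GC content within the peak was 50.3%, and no value for the territory was computed at that width. The share of hosts with a peak at an own start was 12.1% with any Novus peak in place of a common peak, against 5.11% of all protein-coding genes. With any Santa Cruz peak it was 25.1%, against 12.1% of all protein-coding genes. These alternatives differ by their own definition. Leaving out peaks within 1 kb of a start of any annotated transcript left 306. Alternatives chosen after seeing the data were genes of any type (347 peaks), coding transcripts in place of gene spans (319 peaks), the shortest host gene (median length 95.5 kb) and leaving out hosts whose longest transcript was over 5 times the next (96.1 kb). The main limits are the single library per antibody, the absence of peak heights from the lists used here and the dependence of host and intron on the annotation. Neither a replicate error nor the depth behind a single peak could be given.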
